A study of Mus musculus with 6 samples.

Results

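The 10 mouse genes described here encode enzymes of cytosolic fatty acid synthesis (Acly, Acaca, Fasn), fatty acid elongases (Elovl1, Elovl6), fatty acid desaturases (Scd1, Scd2, Fads1, Fads2) and the transcription factor that drives many of them (Srebf1). They were taken by gene symbol from 13931 genes listed for 6 RNA sequencing libraries of C57BL/6 mice, and all 10 were found. Lung preparations labelled as type 2 cells of the alveolar epithelium (AT2 cells), which produce surfactant, were the source of the RNA. Bleomycin, which breaks DNA and injures the lung, had been given repeatedly at 1 U/kg to the mice of 3 libraries. The controls were 3 libraries from mice given PBS, a saline buffer, and no other genotype or agent is labelled. The series design counts 3 mice in each group, with the isolation of the cells, the route and number of doses and the day of harvest not given in the sources used here. Abundance is given in FPKM, the fragments of a transcript scaled by its length and by the mapped fragments of the library, which allows levels to be compared between genes, while comparisons between libraries depend on how the libraries are scaled.

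Fatty acids are built in the cytosol from citrate. ATP citrate lyase (Acly) splits citrate into acetyl-CoA, acetyl-CoA carboxylase (Acaca) makes malonyl-CoA from it, and fatty acid synthase (Fasn) joins these units into palmitate, which elongases lengthen and desaturases provide with double bonds. In AT2 cells palmitate is a main building block of the phosphatidylcholine in surfactant. The transcription factor SREBP-1, encoded by Srebf1, is held in the endoplasmic reticulum as a precursor and activates genes of this route after its release and cleavage.

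Markers of several cell types differed between the groups. Their counts below are to be read against all 12326 tested genes, of which 7.34% were lower and 15.2% higher with bleomycin. Markers of AT2 cells were present in every library, but their summed level was between 3893 and 10825 FPKM in bleomycin libraries and between 19483 and 27766 FPKM in PBS libraries, and 12 of 14 AT2 markers were lower and none was higher (limma adjusted p under 0.05). Within these sums Lyz2, which did not pass (limma adjusted p = 0.848), had 3508, 618 and 463 FPKM in bleomycin libraries 1, 2 and 3. In PBS libraries 1, 2 and 3 it had 1386, 1169 and 1026 FPKM. Of 11 tested pan-epithelial markers 3 were lower and none higher, with sums of 143 to 291 FPKM with bleomycin against 402 to 529 FPKM with PBS. Of the leukocyte markers 13 of 14 were higher, with sums of 1513 to 2247 FPKM with bleomycin and 94.3 to 126 FPKM with PBS. Alveolar macrophage markers (7 of 10 higher, 339 to 466 FPKM with bleomycin against 19.5 to 35.4 FPKM with PBS) and endothelial markers (10 of 11 higher, 349 to 636 FPKM against 44.6 to 55.2 FPKM, with Cldn5 at 0 in all PBS libraries) were likewise higher. Among the markers called higher, Cd3e, Siglecf, Krt79, Emcn and Cldn5 were below 1 FPKM in every PBS library. These markers passed the filter, 1 FPKM in at least 3 libraries, through the bleomycin libraries alone. Fibroblast and smooth muscle markers were lower in 4 of 11 cases, with sums of 479 to 1216 FPKM with bleomycin and 1975 to 2703 FPKM with PBS. Erythroid markers (2 of 5 higher) summed to 637 to 1185 FPKM with bleomycin and 19.3 to 431 FPKM with PBS. Of 8 markers of adipocytes, another lipid-making cell type, 4 were listed, 2 passed the filter and 1 of these was higher. The listed 4 summed to 2.79 to 8.54 FPKM with bleomycin and 1.81 to 3.03 FPKM with PBS. Plin1, Lep, Retn and Pck1 were not listed, so their levels are unknown. The higher adipocyte marker, Cidec, was below 1 FPKM in every PBS library and likewise passed the filter through the bleomycin libraries alone.

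Of the 10 genes, 9 passed the filter of 1 FPKM in at least 3 libraries, and with FPKM as deposited 5 of them (Srebf1, Acly, Acaca, Fasn and Fads2) were lower with bleomycin and none was higher, whereas none was lower once libraries were scaled to their AT2 or pan-epithelial markers, scales on which 0.195% and 0.608% of all tested genes were lower. With FPKM as deposited, 7.34% of all 12326 tested genes were lower and 15.2% higher at the same threshold (limma adjusted p under 0.05). In 6 of the 9, these 5 and Elovl1, every bleomycin value lay below every PBS value, which held for 16.4% of all tested genes, and in none did every bleomycin value lie above every PBS value, which held for 27.2%. The median log2 fold change of the 9 genes was -1.08, against 0.09 over all tested genes. In bulk libraries such as these, a changed share of AT2 or other cells and less of a transcript per cell cannot be told apart. The part that the marker levels above have in the results below was not tested.

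**Figure D1:**
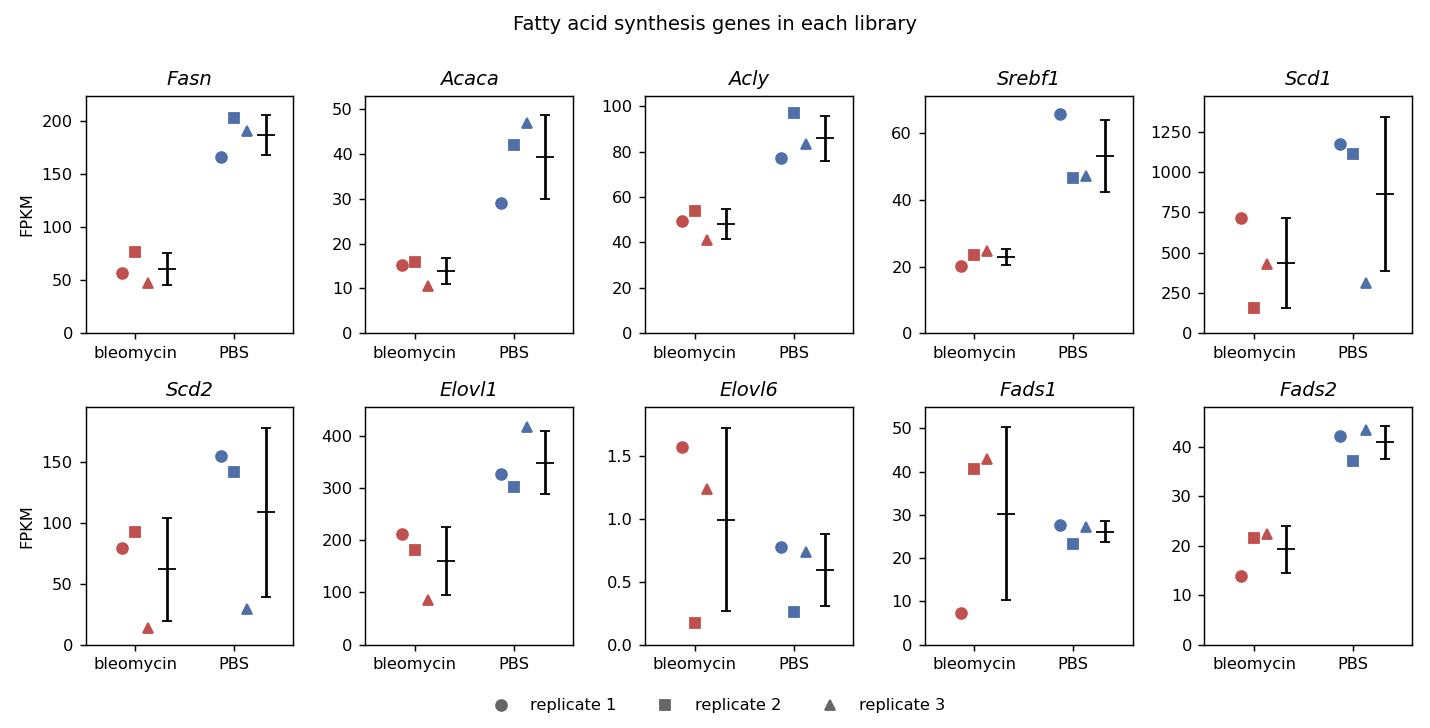
FPKM of the 10 genes in each library, bleomycin in red left of PBS in blue, with a separate linear axis per gene. Points are libraries and the bar beside them is the mean ± SD (n = 3). With these deposited values the groups stand apart in Fasn, Acaca, Acly, Srebf1, Elovl1 and Fads2, with bleomycin below PBS, although their fold changes scaled to AT2 markers are above 0, as is the median of all tested genes on that scale (1.51, against 0.09 as deposited). The groups overlap in Scd1, Scd2, Elovl6 and Fads1.

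Srebf1 encodes SREBP-1 from alternative first exons on mm10 chromosome 11 (60199089 to 60220604, minus strand, ENSMUSG00000020538.15). The upstream start gives the SREBP-1a form and the downstream start the SREBP-1c form, the main one in mouse liver, whose promoter is known for responding to the oxysterol receptor LXR and to SREBP itself. The summed gene had 20.1, 23.5 and 24.6 FPKM in bleomycin libraries 1, 2 and 3, against 65.5, 46.6 and 47.2 FPKM in PBS libraries 1, 2 and 3. The bleomycin libraries lay close together and below all PBS libraries, of which the first was highest. Means were 22.8 ± 2.36 FPKM with bleomycin and 53.1 ± 10.8 FPKM with PBS (SD, n = 3 each), a log2 fold change of -1.18 ± 0.19 (SE, limma adjusted p = 0.00645). The call held without each library in turn (adjusted p 0.0149 to 0.0376).

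The 2 starts differ in the short motifs that their upstream 250 bases hold, and the promoter of Fasn, a known SREBP target, is set beside them for comparison. All 3 sequences are RefSeq promoters of build GRCm38.p6 (the mm10 coordinates), minus strand of chromosome 11, written 5′ to 3′ up to the base before the annotated start. Capitals mark every match, on either strand, to the sterol response element core TCACCC, the NF-Y box CCAAT, the Sp1 box GGGCGG and the LXR element repeat unit GGTTACT.
Srebf1 downstream start, chr11:60210472-60210721: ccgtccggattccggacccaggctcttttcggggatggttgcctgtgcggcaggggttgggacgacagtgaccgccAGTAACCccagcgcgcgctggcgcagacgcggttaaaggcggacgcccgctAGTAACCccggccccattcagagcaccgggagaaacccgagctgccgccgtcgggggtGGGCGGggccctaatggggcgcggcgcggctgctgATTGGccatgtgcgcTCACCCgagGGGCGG
Srebf1 upstream start, chr11:60220628-60220877: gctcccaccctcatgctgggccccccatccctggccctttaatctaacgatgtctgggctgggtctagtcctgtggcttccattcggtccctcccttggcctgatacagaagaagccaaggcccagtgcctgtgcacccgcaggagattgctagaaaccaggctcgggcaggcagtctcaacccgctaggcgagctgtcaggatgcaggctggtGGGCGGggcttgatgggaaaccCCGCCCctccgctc
Fasn, chr11:120824548-120824797: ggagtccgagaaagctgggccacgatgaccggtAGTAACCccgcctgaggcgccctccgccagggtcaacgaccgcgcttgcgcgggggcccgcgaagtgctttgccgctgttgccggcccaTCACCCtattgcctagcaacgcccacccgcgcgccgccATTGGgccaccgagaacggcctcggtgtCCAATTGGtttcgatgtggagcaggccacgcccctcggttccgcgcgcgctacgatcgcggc

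The downstream Srebf1 window lies 6 bases from the start of the listed transcript Srebf1-007. It holds 2 LXR repeat units (from -174 and -123, counting back from the annotated start), Sp1 boxes from -65 and -6, an NF-Y box from -30 and a sterol response element core from -15. The upstream window, 23 bases from the start of transcript Srebf1-005, holds 2 Sp1 boxes (from -36 and -14) and no match to the other 3 motifs. In the Fasn window an LXR repeat unit (from -217), a sterol response element core (from -128) and 3 NF-Y boxes (from -90, -62 and -59) were found, the last 2 overlapping on opposite strands. Of 32851 RefSeq windows of this length, 13.8% hold the sterol response element core, 33.8% the NF-Y box, 32.7% the Sp1 box and 1.88% the LXR repeat unit. Windows were found for 7 of the 10 genes, 10 windows in all, and the other windows held Sp1 boxes (4 at Acly, 5 and 2 at the Elovl1 starts, 1 at Fads2), an NF-Y box at the upstream Elovl1 start overlapping an Sp1 box, an NF-Y box at another Srebf1 start further upstream, or no match (Acaca, Elovl6). The sole Acaca window lies at the start of Acaca-201 (84195438). Acaca-001 starts further upstream (84173122), where no window was found, so motifs at that start were not examined. A match describes the letters only, and no binding was measured.

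The 10 genes have 23 listed transcripts, of which 19 were tested, 8 were lower and none was higher with FPKM as deposited, against 3.97% lower and 10.8% higher of all 17759 tested transcripts. Transcripts from both Srebf1 starts were among the lower ones. Srebf1-007, from the downstream start (60200463 to 60210465), had 0.947, 1.70 and 1.66 FPKM in the bleomycin libraries and 22.1, 11.8 and 6.79 FPKM in the PBS libraries. All bleomycin values were lower than the lowest PBS value, and the PBS values were themselves widely spread. Its log2 fold change was -2.45 ± 0.41 (limma over transcripts, adjusted p = 0.0109), a call lost without bleomycin replicate 1 or 2 (adjusted p = 0.0699 and 0.0571).

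Srebf1-005, from the upstream start (60199089 to 60220604), had 18.7, 19.9 and 22.4 FPKM with bleomycin and 37.9, 34.1 and 39.4 FPKM with PBS, without overlap. Its log2 fold change was -0.84 ± 0.16 (limma over transcripts, adjusted p = 0.0172), a call lost without bleomycin replicate 1 or 2 or PBS replicate 1 or 3 (adjusted p 0.0523 to 0.0998). The third listed transcript, Srebf1-006, had 0.445, 1.97 and 0.533 FPKM with bleomycin and 5.59, 0.748 and 1.03 FPKM with PBS, and did not pass (adjusted p = 0.522).

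Within a library, the share of Srebf1-007 in the sum of both transcripts does not depend on how the library is scaled. Srebf1-007 lies within the span of Srebf1-005, and how well the estimates tell these overlapping transcripts apart was not tested. The share was 4.82%, 7.90% and 6.87% in the bleomycin libraries and 36.8%, 25.7% and 14.7% in the PBS libraries. The highest bleomycin share was below the lowest PBS share, with means of 6.53% ± 1.57 with bleomycin and 25.7% ± 11.04 with PBS (SD, n = 3 each; two-sided exact permutation test p = 0.1, the smallest p that 3 against 3 libraries allow). This share was chosen after the values had been seen. The share of Srebf1-005 in the whole gene was 93.1%, 84.4% and 91.1% with bleomycin and 57.8%, 73.1% and 83.4% with PBS (exact p = 0.1).

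Across all genes, the log2 ratio of the pair of most abundant transcripts was also tested, which asks whether a gene's transcripts changed unequally. The ratio of Srebf1-007 to Srebf1-005 differed by -1.61 ± 0.47 (bleomycin minus PBS), which did not pass after adjustment over 3493 genes (limma adjusted p = 0.239), and 0.802% of those genes passed. The ratios of Fasn, Acaca, Acly and Elovl1 did not pass either (limma adjusted p 0.473 to 0.968). The part of the marker levels above in the shares was not tested.

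**Figure D2:**
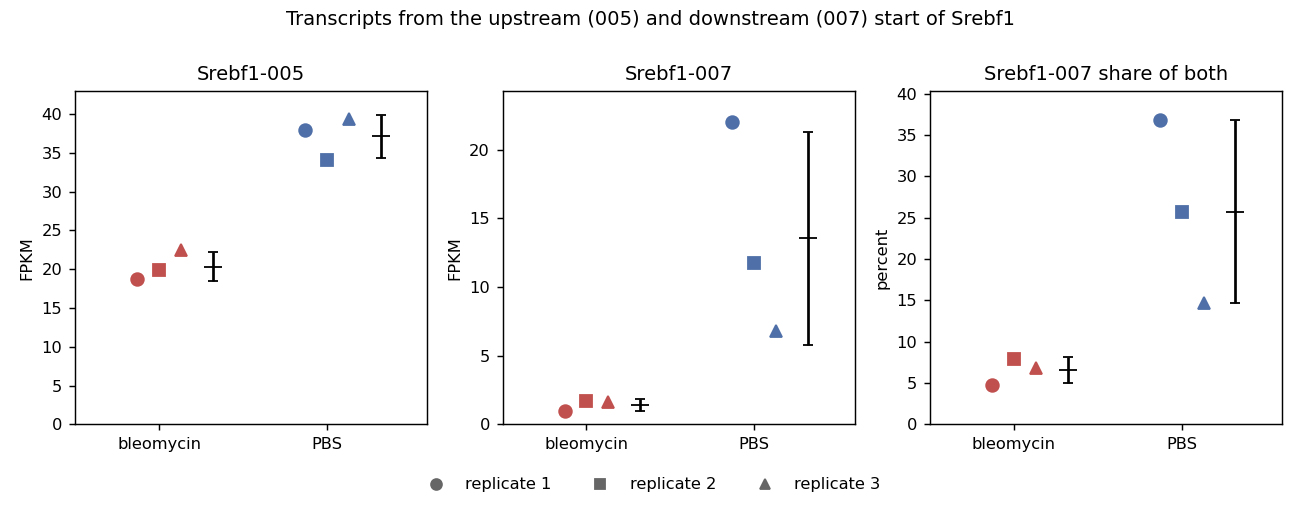
FPKM of the Srebf1 transcripts from the upstream start (left) and downstream start (middle), and the downstream transcript's share of both in percent (right), in each library with the mean ± SD (n = 3). Bleomycin libraries are in red left of PBS libraries in blue. The share lies between 4.82% and 7.90% with bleomycin and between 14.7% and 36.8% with PBS.

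The 3 enzyme genes of the synthesis route were all lower with bleomycin with FPKM as deposited. Acly, ATP citrate lyase (ENSMUSG00000020917.17, chromosome 11, 100476353 to 100528000, minus strand), had 49.6, 53.9 and 41.1 FPKM with bleomycin and 77.3, 96.9 and 83.4 FPKM with PBS. The groups did not overlap. Its mean of 48.2 ± 6.53 FPKM with bleomycin was 56.1% of the 85.9 ± 10.1 FPKM with PBS (SD, n = 3 each), a log2 fold change of -0.82 ± 0.17 (limma adjusted p = 0.0177). The call was lost without bleomycin replicate 1 or 2 or PBS replicate 2 or 3 (adjusted p 0.0537 to 0.0632). Its 2 tested transcripts, Acly-005 and Acly-001, had near equal shares of the gene in both groups (means of 52.6% with bleomycin and 53.2% with PBS for Acly-005) and were both lower (limma over transcripts, adjusted p = 0.0409 and 0.0359), calls that leaving out any 1 library ended (adjusted p 0.0682 to 0.157 for Acly-005 and 0.0706 to 0.135 for Acly-001). That of Acly-005 was also lost with no filter and with no trend in the variance (adjusted p = 0.0515 and 0.0542).

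Acaca, the cytosolic acetyl-CoA carboxylase that commits acetyl units to fatty acids (ENSMUSG00000020532.18, chromosome 11, 84173122 to 84401651, plus strand), had 15.2, 15.9 and 10.6 FPKM with bleomycin and 29.0, 42.0 and 46.9 FPKM with PBS. Even the lowest PBS library was above every bleomycin library. Means were 13.9 ± 2.93 FPKM with bleomycin and 39.3 ± 9.26 FPKM with PBS, a log2 fold change of -1.43 ± 0.24 (limma adjusted p = 0.00861; 0.0101 to 0.0370 with each library left out). Its main transcript, Acaca-201, was tightly grouped, with 10.5, 11.5 and 8.73 FPKM with bleomycin and 23.2, 23.1 and 24.7 FPKM with PBS, and was lower by a log2 fold change of -1.14 ± 0.17 (limma over transcripts, adjusted p = 0.00709). That call was kept without each library in turn (adjusted p 0.0256 to 0.0474). Acaca-001, from a start further upstream, was listed at 0, 1.55 and 0 FPKM with bleomycin and at 2.59, 8.003 and 6.65 FPKM with PBS (limma over transcripts, adjusted p = 0.0339). Its call was lost without bleomycin replicate 1 or 3 or PBS replicate 2 or 3 (adjusted p up to 0.144), and with a pseudocount of 0.1, which moved its log2 fold change to -4.38, against -2.20 with a pseudocount of 1 (adjusted p = 0.0624).

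Fasn, the synthase that assembles palmitate (ENSMUSG00000025153.9, chromosome 11, 120805846 to 120824547, minus strand), showed the lowest fold change of the 9 tested genes. It had 56.7, 76.6 and 47.5 FPKM with bleomycin and 166, 202 and 191 FPKM with PBS. The groups were far apart relative to their spread, with means of 60.3 ± 14.9 FPKM with bleomycin, 32.4% of the 186 ± 18.9 FPKM with PBS. The log2 fold change was -1.63 ± 0.21, with a 95% interval of -2.14 to -1.12 (limma adjusted p = 0.00285; 0.00688 to 0.0217 with each library left out). Between its 2 abundant transcripts the estimates were uneven: Fasn-006 was listed at 33.6, 45.1 and 0 FPKM with bleomycin and at 40.8, 115 and 108 FPKM with PBS, and did not pass (limma over transcripts, adjusted p = 0.249). Fasn-001 had 22.7, 31.1 and 46.6 FPKM with bleomycin and 124, 86.9 and 81.0 FPKM with PBS, without overlap, and passed (limma over transcripts, adjusted p = 0.0198), a call lost without bleomycin replicate 1 or 2 or PBS replicate 1 or 2 (adjusted p up to 0.0973).

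Elovl1, the elongase of saturated and monounsaturated very long chain acyl-CoAs (ENSMUSG00000006390.15, chromosome 4, 118428093 to 118432953, plus strand), had 212, 182 and 86.2 FPKM with bleomycin and 328, 302 and 418 FPKM with PBS. The groups did not overlap, with means of 160 ± 65.7 FPKM with bleomycin and 350 ± 61.0 FPKM with PBS, but the log2 fold change of -1.21 ± 0.36 did not pass (limma adjusted p = 0.0556). It passed with libraries scaled to equal medians, with library weights and with its most abundant transcript alone (limma adjusted p = 0.0323, 0.0413 and 0.0467). The most abundant transcript, Elovl1-003, made up 64.2% of the gene with bleomycin and 65.7% with PBS. In the fit over all transcripts it did not pass (limma over transcripts, adjusted p = 0.0524).

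Elovl6, the elongase that turns palmitate into stearate in lipogenic tissues (ENSMUSG00000041220.10, chromosome 3, 129532386 to 129638495, plus strand), was near the limit of the data. It had 1.57, 0.173 and 1.24 FPKM with bleomycin and 0.775, 0.259 and 0.740 FPKM with PBS. The values overlapped and were below the filter, so that it was not tested, and with no filter its log2 fold change of 0.27 did not pass (limma adjusted p = 0.602). Elovl1 thus made up 99.3%, 99.9% and 98.6% of the pair's FPKM with bleomycin and 99.8%, 99.9% and 99.8% with PBS (exact permutation p = 0.3).

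The stearoyl-CoA desaturases Scd1 and Scd2, which place the first double bond in palmitate and stearate and lie on chromosome 19 (44394451 to 44407709, minus strand, and 44293676 to 44306864, plus strand), varied more between libraries than between groups. Scd1 (ENSMUSG00000037071.2), with the highest mean of the 10 genes in both groups, had 714, 156 and 432 FPKM with bleomycin and 1173, 1109 and 312 FPKM with PBS. PBS replicate 3 was below 2 of the 3 bleomycin libraries. The log2 fold change was -1.02 ± 0.72 with a 95% interval of -2.74 to 0.70, and did not pass (limma adjusted p = 0.351).

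Scd2 (ENSMUSG00000025203.5) had 79.1, 92.7 and 13.4 FPKM with bleomycin and 155, 141 and 28.9 FPKM with PBS. The lowest library of either group was replicate 3, and the groups overlapped. Its log2 fold change of -0.87 ± 0.91, with a 95% interval of -3.06 to 1.31, did not pass (limma adjusted p = 0.535). Neither gene passed with any 1 library left out. The fold change of Scd1 ran from -1.65 without PBS replicate 3 to -0.41 without bleomycin replicate 2 (limma adjusted p 0.151 to 0.720), and that of Scd2 from -1.65 without PBS replicate 3 to -0.011 without bleomycin replicate 3 (0.243 to 0.994). The share of Scd2 in the sum of both was 9.97%, 37.3% and 3.01% with bleomycin and 11.7%, 11.3% and 8.49% with PBS (exact permutation p = 0.9), so that the balance of the pair varied among bleomycin libraries and was nearly constant among PBS libraries.

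Fads1 and Fads2 encode the front-end desaturases that make polyunsaturated fatty acids such as arachidonate from dietary precursors, Fads2 acting first. Fads2 (ENSMUSG00000024665.7, chromosome 19, 10064164 to 10101503, minus strand) had 13.8, 21.6 and 22.3 FPKM with bleomycin and 42.1, 37.1 and 43.5 FPKM with PBS. All bleomycin values were below all PBS values, with means of 19.2 ± 4.70 FPKM with bleomycin and 40.9 ± 3.38 FPKM with PBS, a log2 fold change of -1.08 ± 0.21 (limma adjusted p = 0.0149). The call was lost without PBS replicate 3 (adjusted p = 0.0545).

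Fads1 (ENSMUSG00000010663.4, chromosome 19, 10182888 to 10196870, plus strand) had 7.34, 40.7 and 42.9 FPKM with bleomycin and 27.6, 23.3 and 27.3 FPKM with PBS. Bleomycin replicate 1 was below and the other 2 bleomycin libraries were above all PBS libraries. The log2 fold change was -0.12 ± 0.63 (limma adjusted p = 0.912), and without bleomycin replicate 1 it was 0.67 (limma adjusted p = 0.0696). The share of Fads1 in the sum of both genes was 34.7%, 65.4% and 65.8% with bleomycin and 39.6%, 38.6% and 38.6% with PBS (exact permutation p = 0.4).

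The library profiles, each gene's log2(FPKM + 1) minus its mean over the 6 libraries, show how the genes varied together. Fasn, Acaca, Acly, Srebf1 and Fads2 were below their mean in all 3 bleomycin libraries and above it in all 3 PBS libraries, as was Elovl1. Acly stayed nearest to the mean profile of the 9 genes, with a root mean square distance of 0.181 on the log2 scale, and Scd2 and Fads1 farthest, with 0.999 and 0.946. Among the tested genes outside the set with profiles nearest to this mean were Ccdc149, Cth, Nedd4l and Pgs1, at distances of 0.0725 to 0.0921 over 6 libraries. These were picked as the nearest, and they lay nearer to the mean profile than any of the 9 genes, so closeness to it does not set the 9 genes apart.

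**Figure D3:**
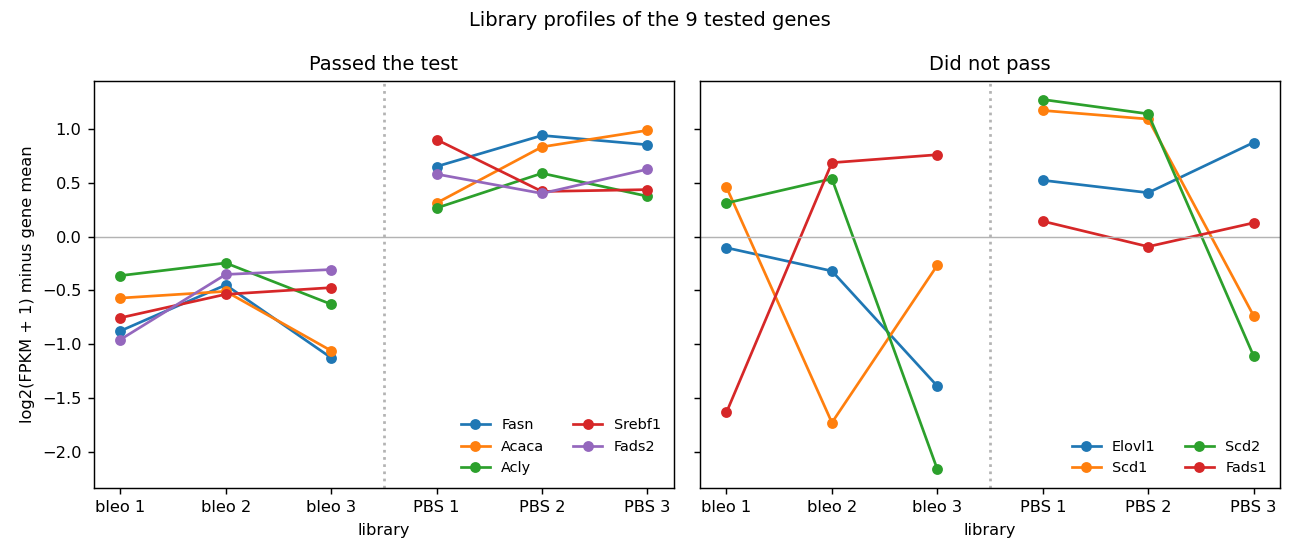
Log2(FPKM + 1) minus the gene's mean over the 6 libraries, for the 5 genes that passed the test (left) and the 4 tested genes that did not (right), bleomycin libraries left of PBS libraries. Lines join the points of a gene within a group and imply no order. With FPKM as deposited the 5 genes on the left lie below 0 in every bleomycin library and above 0 in every PBS library, while Scd1, Scd2 and Fads1 cross within a group, and scaled to AT2 markers the fold changes of all 9, and the median of all tested genes (1.51), are above 0.

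By mean level, the bleomycin libraries ran from Scd1 (434 FPKM) through Elovl1 (160), Scd2 (61.7), Fasn (60.3), Acly (48.2), Fads1 (30.3), Srebf1 (22.8), Fads2 (19.2) and Acaca (13.9) to Elovl6 (0.996 FPKM). In this order, Acaca and Elovl6 were the sole neighbours whose ranges over libraries did not overlap. In the PBS libraries the order was Scd1 (865 FPKM), Elovl1 (350), Fasn (186), Scd2 (108), Acly (85.9), Srebf1 (53.1), Fads2 (40.9), Acaca (39.3), Fads1 (26.1) and Elovl6 (0.591 FPKM). Ranges overlapped there between Scd1 and Elovl1, Scd2 and Acly, and Fads2 and Acaca, and not between the other neighbours.

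The direction of the fold changes depended on the scale of the libraries. The median log2 fold change was -1.08 for the 9 tested genes, -1.86 for the AT2 markers and -1.03 for the pan-epithelial markers. With each library scaled to its AT2 markers, the median of all tested genes moved to 1.51 and that of the 9 genes to 0.54. All 9 then had fold changes above 0, from 0.02 for Fasn (limma adjusted p = 0.945) to 1.48 for Fads1, none was lower, and Acly was higher (0.83, limma adjusted p = 0.0344), as were 77.9% of all tested genes.

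With pan-epithelial scaling the median of all tested genes was 0.89 and that of the 9 genes -0.16, from -0.70 for Fasn (limma adjusted p = 0.107) and -0.52 for Acaca (0.238) to 0.79 for Fads1, and none passed. On either scale the 9 genes' median was below that of all tested genes. Increases made up 67.4% of all genes called with FPKM as deposited, 51.1% with equal medians, 49.8% with quantile normalization, 99.8% with AT2 scaling and 98.5% with pan-epithelial scaling. With equal medians 6 of the 9 genes were lower, against 11.5% of all tested genes, and with quantile normalization 5, against 11.7%. None of the 9 was higher under either, against 12% and 11.6% of all tested genes.

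**Figure D4:**
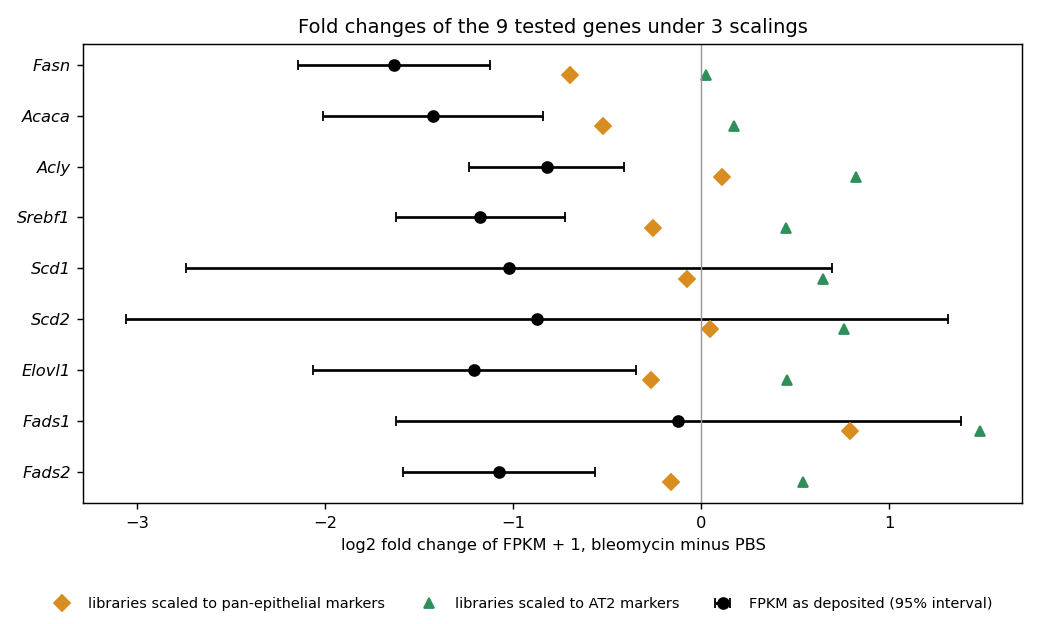
Log2 fold change of FPKM + 1, bleomycin minus PBS, of the 9 tested genes with FPKM as deposited (circles with the 95% interval of the limma fit), with libraries scaled to pan-epithelial markers (diamonds) and to AT2 markers (triangles). All 9 circles are below 0, the diamonds run from -0.70 to 0.79, and all 9 triangles are above 0, scales on which the median of all tested genes is 0.09, 0.89 and 1.51.

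Other genes of the pathway were taken from 8 lists of 86 genes, of which 74 were tested. With FPKM as deposited 7 were lower and 4 higher, whereas 1 was lower and 59 higher with AT2 scaling, and 1 was lower and 26 higher with pan-epithelial scaling. Of all tested genes 7.34% were lower and 15.2% higher as deposited, 77.9% were higher with AT2 scaling and 41% with pan-epithelial scaling, and the counts of each list below are to be read against the deposited shares. Their median log2 fold change, with FPKM as deposited, was -0.05. In the supply of acetyl-CoA and NADPH 1 of 10 tested genes was lower, Aacs, which activates acetoacetate, by -0.67 (limma adjusted p = 0.0325), and none was higher. The mitochondrial citrate carrier Slc25a1 (-0.74), the NADPH-making malic enzyme Me1 (-0.93) and the acetyl-CoA synthetase Acss2 (-0.01) did not pass (limma adjusted p = 0.146, 0.0651 and 0.964). Me1 passed with equal medians, quantile normalization, library weights or the replicate block (limma adjusted p = 0.0351, 0.0489, 0.0443 and 0.0335). With any 1 library left out Me1 did not pass (0.0628 to 0.194). In the list of other genes of the carboxylase and synthase steps none of 8 passed in either direction.

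Of 8 tested elongation genes, 1 was lower and 1 higher, both of them dehydratases of the elongation cycle by family. Hacd3 had 14.2, 12.6 and 21.8 FPKM with bleomycin and 65.4, 60.4 and 28.1 FPKM with PBS, without overlap (log2 fold change -1.55, limma adjusted p = 0.0274). Hacd4 had 2.37, 1.51 and 2.48 FPKM with bleomycin and 0.574, 0.452 and 1.07 FPKM with PBS (0.88, limma adjusted p = 0.0330). Elovl5, an elongase of polyunsaturated fatty acids, did not pass (-0.22, limma adjusted p = 0.715).

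Of 7 tested genes in the list of other desaturases and their electron donors 2 were lower and none higher. Fads3, a desaturase gene of the Fads cluster, had 8.38, 8.98 and 10.4 FPKM with bleomycin and 26.9, 15.3 and 19.2 FPKM with PBS (-1.04, limma adjusted p = 0.0216). Cyb5b, a cytochrome b5 of the outer mitochondrial membrane, was lower by -0.84 (limma adjusted p = 0.0255). In the list of acyl-CoA synthetases and carriers 2 of 7 were lower and none higher, Acsl5 by -0.77 and Slc27a4 by -0.69 (limma adjusted p = 0.0405 and 0.0435), both of which attach CoA to long-chain fatty acids.

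Among 10 genes of the escort, cleavage and retention of SREBP, 1 was lower and none higher. It was Rnf139, a ubiquitin ligase of the endoplasmic reticulum, with 0.463, 0.659 and 0.0160 FPKM with bleomycin and 8.55, 7.81 and 9.28 FPKM with PBS (-2.82, limma adjusted p = 0.000401). It passed the filter through the PBS libraries alone. The escort protein gene Scap (-0.31), the retention protein gene Insig1 (-0.17) and Srebf2 (-0.16), which encodes the SREBP of cholesterol synthesis, did not pass (limma adjusted p = 0.225, 0.866 and 0.603). Of 10 genes of the AMP-activated kinase, which inactivates acetyl-CoA carboxylase, and its upstream kinases none passed in either direction.

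Of 14 tested nuclear receptors and cofactors of lipogenesis 3 were higher and none lower, set against 15.2% of all tested genes that were higher. Pparg, the fatty acid receptor of adipocytes and alveolar macrophages, had 9.003, 6.42 and 8.48 FPKM with bleomycin and 2.35, 1.75 and 3.01 FPKM with PBS (1.42, limma adjusted p = 0.00540, 0.0119 to 0.0350 with each library left out). With its most abundant transcript alone the change was 0.50 and did not pass (limma adjusted p = 0.189). The macrophage markers were higher in the same libraries (sums above), and their part in the level of Pparg was not tested. Usf1, a factor of the E-box in the Fasn promoter, and Ppargc1b, a coactivator of SREBP-1, were higher by 0.98 and 0.70 (limma adjusted p = 0.0231 and 0.0196). Ppargc1b had 1.15, 1.49 and 1.24 FPKM with bleomycin and 0.383, 0.450 and 0.396 FPKM with PBS, and so passed the filter through the bleomycin libraries alone. The LXR gene Nr1h3 did not pass with all libraries (-0.66, limma adjusted p = 0.0640), and passed without bleomycin replicate 3 (0.0464) and with equal medians, quantile normalization or library weights (0.0332, 0.0421 and 0.0335).

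Of these 11 calls, that of Pparg held in each of the 6 fits with a library left out. That of Rnf139 held in the 3 fits without a bleomycin library, while it was below the filter, and so untested, without any 1 PBS library. Each of the other 9 was lost without at least 3 of the libraries: Acsl5 without any 1, Aacs and Cyb5b without any but PBS replicate 1, Hacd4 and Slc27a4 without any but PBS replicate 3, Hacd3 without bleomycin replicate 1 or 2 or PBS replicate 1 or 2, Usf1 without bleomycin replicate 1 or 2 or PBS replicate 2 or 3, Fads3 without bleomycin replicate 1 or 2 or PBS replicate 3, and Ppargc1b without any 1 PBS replicate, the 3 fits that tested it (limma adjusted p 0.0564 to 0.132). Quantile normalization also ended the calls of Hacd4 and Ppargc1b (limma adjusted p = 0.146 and 0.407), library weights that of Hacd4 (0.0531), and the most abundant transcript alone those of Acsl5 and Slc27a4 (0.0524 and 0.0575). With the replicate number as a block, the calls of Aacs, Hacd3, Fads3, Cyb5b, Acsl5, Slc27a4 and Ppargc1b were lost (limma adjusted p 0.0535 to 0.0904).

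**Figure D5:**
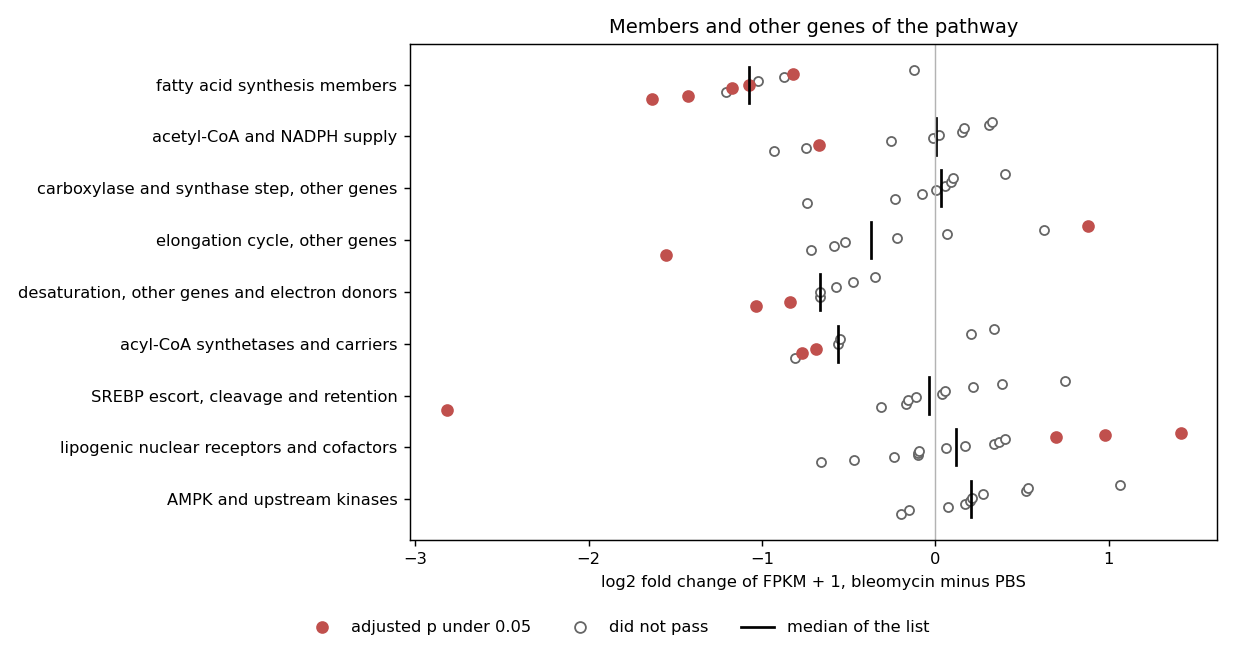
Log2 fold change of FPKM + 1, bleomycin minus PBS, of the 9 tested genes of the set (top row) and of the tested genes of the 8 other pathway lists, with FPKM as deposited. Filled points passed (limma adjusted p under 0.05), open points did not, and the upright line is the list's median. The median of the top row is -1.08 and that of all other list genes together -0.05, and scaled to AT2 markers the median of the top row is 0.54 and that of all tested genes 1.51.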

How the data were processed

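RNA libraries were made from total RNA with a stranded kit, per the labels' protocols, and HISAT2, StringTie, FastQC version 0.10.1 and build mm10 were used per the submitters' processing notes. Annotation and settings were not given in the sources used here. For each library the authors deposited FPKM for the same 24647 transcripts (13931 genes), per the file headers. The listed FPKM sum to 253146 to 300697 per library. Whole reads could not be recovered (no more than 49.5% of the low values were multiples of a shared step), so the depth is unknown, no interval from counts is given, and a listed 0 can be a failed estimate.

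Transcript FPKM were summed by gene ID, and log2(FPKM + 1), which understates changes of low genes, was fitted by group alone with limma 3.58.1 (lmFit and trended eBayes, R 4.3.3). The fit covered 12326 genes or 17759 transcripts with at least 1 FPKM in 3 libraries, with Benjamini-Hochberg adjustment over all of them and a threshold of 0.05. Shares were compared by two-sided exact permutation. The p-values rest on the spread between these libraries. In limma the spread of each gene or transcript is drawn toward a trend over all those tested. Whether each library came from its own mouse is not labelled. No library pair was identical. The fit was tested on simulated data.

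Genes and lists were chosen with earlier results of these data known. Named were the 10 genes, up to 4 passing genes with the smallest adjusted p per pathway list, Elovl5, Slc25a1, Acss2, Me1, Insig1, Scap, Srebf2 and Nr1h3 in any case, and the 5 genes of nearest profile with a mean of at least 5 FPKM in a group. Some genes that this takes are not reported here. The transcript ratio and the Srebf1-007 share were added after the data had been seen. Promoters are from RefSeq (GRCm38.p6), and those of Scd1, Scd2 and Fads1 were not used here. Alternatives covered the pseudocount, filter, scaling, trend, library weights, most abundant transcript, replicate block and each library left out.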

Additional observations from a re-analysis of the deposited data

How the results depend on the processing

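The calls of Fasn, Acaca and Srebf1 kept their direction and their side of the threshold under every alternative except the scalings to AT2 and pan-epithelial markers. Depth is unknown, so counting error at low levels such as those of Elovl6 and Srebf1-007 cannot be given. The causes of the changes below were not tested.

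With AT2 scaling, which moved the median of all genes to 1.51, 24 genes were lower and 9596 higher, against 905 lower and 1871 higher with FPKM as deposited. Of the 9 genes 0 were lower and 1 higher, and of the pathway list genes 1 was lower and 59 higher, against 7 lower and 4 higher. The log2 fold changes turned positive for Fasn (0.024), Acaca (0.17), Acly (0.83), Srebf1 (0.45), Scd1 (0.65), Scd2 (0.76), Elovl1 (0.46), Fads1 (1.48) and Fads2 (0.54). Among pathway genes they turned positive for Aacs (0.81), Hacd3 (0.066), Fads3 (0.52), Cyb5b (0.54), Acsl5 (0.88), Slc27a4 (0.74), Elovl5 (1.41), Slc25a1 (0.86), Acss2 (1.48), Me1 (0.67), Insig1 (1.43), Scap (1.28), Srebf2 (1.47) and Nr1h3 (0.92). With pan-epithelial scaling 75 genes were lower and 5055 higher, 0 of the 9 genes were lower, and 1 pathway list gene was lower and 26 higher. There the fold changes turned positive for Acly (0.11), Scd2 (0.048), Fads1 (0.79), Aacs (0.17), Acsl5 (0.17), Slc27a4 (0.12), Elovl5 (0.70), Slc25a1 (0.16), Acss2 (0.83), Insig1 (0.74), Scap (0.59), Srebf2 (0.76) and Nr1h3 (0.24).

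With equal medians 1413 genes, 1207 transcripts (705 as deposited) and 14 pathway list genes were lower, and with quantile normalization 1441 genes, 1126 transcripts and 12 pathway list genes were lower and 2 pathway list genes higher. The filter of 5 FPKM left 2 pathway list genes and 1086 transcripts higher (1919 with the filter of 1 FPKM), and the most abundant transcript alone left 2 pathway list genes higher and gave 0.16 for Acss2. Library weights turned Fads1 to 0.12 (0.021 in the fit over transcripts) and Acss2 to 0.11. Genes with a changed transcript ratio numbered 18 with a pseudocount of 0.1 and 72 with a pseudocount of 5, against 28 with 1.

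Same-numbered libraries of both groups did not deviate together (correlations of -0.0043, 0.0172 and 0.0391 for numbers 1, 2 and 3), so the numbers were not taken as pairs. With the replicate block 563 genes, 324 transcripts, 2 pathway list genes, 6 of the 9 genes and 3 of their transcripts (8 without the block) were lower, and 0 genes had a changed transcript ratio. Scd2 passed with the block (limma adjusted p = 0.0363).

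With each library left out, 353 to 739 genes were lower and 677 to 1443 higher, with the lowest counts without bleomycin replicate 1 (353 lower, 693 higher) and bleomycin replicate 2 (358 and 677). Transcripts ran from 161 to 387 lower and from 431 to 1502 higher, pathway list genes from 1 to 6 lower and from 1 to 2 higher, and genes with a changed ratio from 0 to 12. Of the 9 genes 3 to 5 were lower, with 3 (Fasn, Acaca and Srebf1) without PBS replicate 3. These fits tested 17 to 19 of their transcripts, of which 1 to 4 were lower, with 1 of 18 without bleomycin replicate 1. Fold changes changed sign in Fads1, as a gene and as its sole transcript (-0.53 to 0.67), Elovl5 (-0.48 to 0.24), Acss2 (-0.17 to 0.072) and Insig1 (-0.46 to 0.39), none of which passed in any of these fits.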
